A study of Mus musculus with 9 samples.

Results

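Hox genes encode homeodomain transcription factors that give cells of the vertebrate body their position along the head-to-tail axis. In the mouse they lie in clusters named Hoxa, Hoxb, Hoxc and Hoxd, and the paralog number follows the order along a cluster, so that genes with low numbers act in the hindbrain and neck and genes with high numbers act in the trunk, limbs and tail. Fibroblasts kept in culture hold a pattern of Hox transcripts that reflects the body site they came from. The members were the rows of the normalized count table named after a Hox gene of any of these clusters or after an antisense transcript of one, which gave 19 of 15184 listed genes, of which 18 are described here. These comprised 5 rows of the Hoxa cluster (Hoxa2, Hoxa3, Hoxa4, Hoxa5 and Hoxa7), 9 of the Hoxb cluster (Hoxb2 to Hoxb9 and the antisense transcript Hoxb3os), 4 of the Hoxd cluster (Hoxd4, Hoxd8, Hoxd9 and the antisense transcript Hoxd3os1) and 0 of the Hoxc cluster. Of 39 coding Hox genes in GENCODE vM39, 16 are described here, and no gene with a paralog number above 9 was among them.

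The samples were mouse embryonic fibroblasts (MEFs), a mixed population of connective tissue cells grown from embryos. PolyA+ RNA was read by RNA-Seq in 9 libraries, 3 from MEFs labelled empty vector, 3 from the line SAM1 and 3 from the line SAM2. SAM1 and SAM2 are both labelled Hnrnpk SAM, that is, MEFs with the synergistic activation mediator system, in which an inactive Cas9 and a guide RNA bring transcriptional activators to the Hnrnpk gene. Per the methods, wild-type MEFs received the SAM vectors by lentiviral transduction, and all cells were selected with blasticidin and hygromycin. The guides were used independently, and the controls carried a non-targeting guide. However, the methods print the same sequence for the non-targeting guide and for the second Hnrnpk guide, so as printed these cannot be told apart. Which guide SAM1 and SAM2 each carry is not given in the sources used here. Each group is taken here as 1 selected line, which the labels do not state. The embryos were at mid-gestation per the methods, and their strain is not given in the labels. Effects of the line and of the guide cannot be told apart. The labels do not say whether the 3 libraries of a line came from separate cultures, so the p-values measure the spread between these libraries, which may be technical. Because these are bulk samples, a larger share of cells with a transcript and more transcript per cell cannot be told apart either.

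Values are reads per gene divided by the size factor of the library, here called normalized counts, and the values of replicates 1, 2 and 3 are always given in that order. Recovered reads on listed genes ranged from 41759636 to 49026626 over 8 libraries. Hnrnpk itself was at 25058, 26098 and 26164 normalized counts in empty vector, at 24102, 24045 and 23619 in SAM1, and at 26608, 26859 and 26221 in SAM2. Its log2 difference from empty vector was -0.11 in SAM1 (adjusted p = 0.00252, limma) and 0.04 in SAM2 (adjusted p = 0.159). Under quantile normalization it was 0.09 (adjusted p = 0.00502) and 0.22 (adjusted p = 4.59e-06). No other alternative changed the direction or call of these values, so the targeted transcript was higher only under that scaling. By qRT-PCR and Western blot, the paper reports higher Hnrnpk RNA and protein in Hnrnpk SAM MEFs. The groups are named below by their labels only.

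All 13 fibroblast markers on a fixed list were listed, with a summed normalized count of 1062531 to 1155647 in empty vector, 900237 to 958061 in SAM1 and 1179153 to 1217615 in SAM2. Of the 13, 3 rose and 9 fell in SAM1 and 3 rose and 6 fell in SAM2. Dcn, a matrix proteoglycan gene, went from a mean of 11815 in empty vector to 2713 in SAM1 and 2538 in SAM2, and the receptor gene Pdgfra had log2 differences of -0.60 and -0.81 (limma, adjusted p = 3.6e-08 and 2.37e-09). Some markers of other cell types, such as Epcam, Emcn, Ptprc, Myod1, Pax7 and Sox10, were not among the genes analysed here, while others were. The summed level of 4 endothelial markers was 4613 to 4988 in SAM1 against 301 to 357 in empty vector and 638 to 689 in SAM2. This sum came mostly from Kdr (mean 4693 in SAM1). Of the 4 markers, 2 rose in SAM1, and 2 rose and 1 fell in SAM2. Cdh5 of the same list had a log2 difference of -0.26 in SAM1 (adjusted p = 0.227) and fell by 0.63 in SAM2 (adjusted p = 0.0083). The Cdh5 value in SAM1 was called under quantile normalization (-0.65, adjusted p = 0.00645). The sum of 3 epithelial markers was 3733 to 3884 in SAM1 against 388 to 429 in empty vector and 243 to 275 in SAM2. It came mostly from Cldn4 (mean 3691 in SAM1). All 3 epithelial markers rose in SAM1, and in SAM2 1 fell and 2 were not called. The sum of 3 neural and glial markers was 2176 to 2345 in empty vector, 8988 to 9160 in SAM1 and 8273 to 8460 in SAM2, mostly from Nes. All 3 rose in SAM1 and 2 rose in SAM2. Of all genes, 37.3% rose and 36.9% fell in SAM1, and 35.2% rose and 35.3% fell in SAM2. Both skeletal muscle markers analysed rose in each line, Acta1 by 2.51 and 2.22 and Des by 0.62 and 1.81 (adjusted p at most 0.00777), with a sum of 89 to 127 in empty vector, 338 to 365 in SAM1 and 412 to 457 in SAM2, and the SAM1 call of Des was lost under quantile normalization (0.27, adjusted p = 0.180). Of 3 blood cell markers, 2 rose in SAM1, and 1 rose and 2 fell in SAM2, with a sum of 607 to 728 in empty vector, 944 to 977 in SAM1 and 695 to 739 in SAM2. The part of these markers in the Hox values was not tested.

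The tests turn on how the Hox genes differed between empty vector, SAM1 and SAM2. A gene was called when its adjusted p was under 0.05 in limma on log2(value + 1), with adjustment over all 15184 genes. In SAM1 against empty vector, 10 of the 18 members described were called higher and 5 lower, where 37.3% of all genes were called higher and 36.9% lower. In SAM2 against empty vector, 12 were called higher and 4 lower, where 35.2% of all genes were called higher and 35.3% lower. In SAM2 against SAM1, 5 were called higher and 4 lower, where 31.1% of all genes were called higher and 29.2% lower. When the 6 libraries labelled Hnrnpk SAM were taken as one group, 9 members were called higher and 4 lower, where 26.8% of all genes were called higher and 27% lower. The median log2 difference of the members was 0.32 in SAM1 and 0.40 in SAM2 against empty vector and -0.05 between the lines, beside 0.009, -0.001 and -0.007 over all genes. Both comparisons with empty vector use the same 3 control libraries.

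The Hoxa rows were called in 1 direction and so were the Hoxd rows, whereas the Hoxb rows were called in both. All 5 Hoxa genes described rose in SAM1 and all 5 rose in SAM2, with a median log2 difference of 3.38 and 2.74. In the Hoxb cluster, 5 of 9 rows rose and 3 fell in SAM1, and 7 rose and 1 fell in SAM2, with a median of 0.28 and 0.30. In the Hoxd cluster none of the 4 rows rose, 2 fell in SAM1 and 3 fell in SAM2, with a median of -0.53 and -0.83. By paralog number, 4 of the 7 coding members numbered 4 or lower rose and 1 fell in SAM1, and 5 rose and 1 fell in SAM2. Of the 5 numbered 5 to 7, 4 rose and 1 fell in SAM1, and 4 rose and 0 fell in SAM2. Of the 4 numbered 8 and 9, 1 rose and 3 fell in SAM1, and 2 rose and 2 fell in SAM2, with the Hoxd genes among those that fell in each. Over all genes, 37.3% rose and 36.9% fell in SAM1, and 35.2% rose and 35.3% fell in SAM2.

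**Figure D1:**
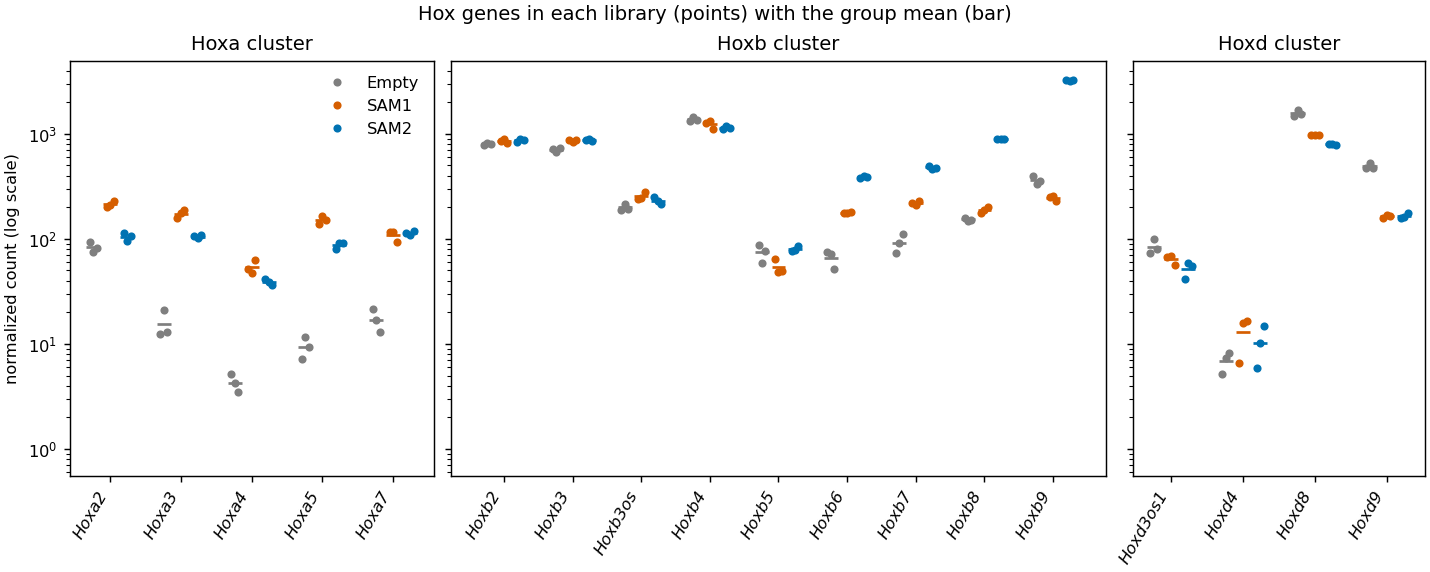
Normalized counts (log axis) of the 18 Hox rows in each of the 9 libraries, ordered by paralog number within the Hoxa, Hoxb and Hoxd clusters. Points are libraries and short bars are group means (n = 3). Hoxa3, Hoxa4, Hoxa5 and Hoxa7 sit at 3.5 to 21.5 in empty vector and at 36.2 to 187 in the SAM lines, Hoxb9 sits at 3193 to 3257 in SAM2 only, and Hoxd9 drops from 471 to 529 in empty vector to 157 to 175.

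To show the regions upstream of genes that rose or fell together, the RefSeq windows of 250 bases before to 50 bases after the gene start are given for Hoxa3, Hoxa5 and Hoxa7 (raised in each line), Hoxb8 (raised mainly in SAM2), and Hoxd8 and Hoxd9 (lowered in each line). The build of these windows is GRCm38.p6 and each is printed 5′ to 3′ on the strand of its gene. Of the 18 members described 11 had a window. Hoxa4, Hoxb6, Hoxb7 and Hoxb9 are named only. Capitals mark matches, on either strand, to a HOX-PBX site (TGATNNAT), a site of the caudal family (TTTATG) or a retinoic acid receptor half-site (AGGTCA). The motifs were searched separately and matches could overlap.
Hoxa3, chr6:52213018-52213317, minus strand: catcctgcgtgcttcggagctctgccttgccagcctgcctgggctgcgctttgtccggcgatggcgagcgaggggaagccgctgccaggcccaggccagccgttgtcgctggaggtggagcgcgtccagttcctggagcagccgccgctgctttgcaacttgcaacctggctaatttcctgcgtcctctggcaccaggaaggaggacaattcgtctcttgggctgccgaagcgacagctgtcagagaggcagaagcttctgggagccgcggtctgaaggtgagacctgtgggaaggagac
Hoxa5, chr6:52204538-52204837, minus strand: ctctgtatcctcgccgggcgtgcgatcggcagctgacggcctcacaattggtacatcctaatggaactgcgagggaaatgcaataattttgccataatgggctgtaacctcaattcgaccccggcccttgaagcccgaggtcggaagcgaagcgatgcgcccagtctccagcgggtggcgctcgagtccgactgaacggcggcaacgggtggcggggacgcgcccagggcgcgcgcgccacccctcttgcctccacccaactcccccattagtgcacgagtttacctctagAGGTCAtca
Hoxa7, chr6:52218524-52218823, minus strand: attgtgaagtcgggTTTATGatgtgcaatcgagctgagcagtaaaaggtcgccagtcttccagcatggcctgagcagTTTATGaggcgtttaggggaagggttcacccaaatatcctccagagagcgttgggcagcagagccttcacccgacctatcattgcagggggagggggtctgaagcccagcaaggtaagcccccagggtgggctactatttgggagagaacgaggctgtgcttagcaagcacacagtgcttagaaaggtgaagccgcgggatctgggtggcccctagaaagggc
Hoxb8, chr11:96281655-96281954, plus strand: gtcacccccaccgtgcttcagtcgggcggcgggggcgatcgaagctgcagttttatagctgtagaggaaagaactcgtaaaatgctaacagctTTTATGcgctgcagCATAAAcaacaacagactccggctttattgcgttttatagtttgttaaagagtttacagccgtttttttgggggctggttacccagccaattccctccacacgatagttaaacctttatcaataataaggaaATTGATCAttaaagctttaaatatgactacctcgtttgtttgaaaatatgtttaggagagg
Hoxd8, chr2:74704365-74704664, plus strand: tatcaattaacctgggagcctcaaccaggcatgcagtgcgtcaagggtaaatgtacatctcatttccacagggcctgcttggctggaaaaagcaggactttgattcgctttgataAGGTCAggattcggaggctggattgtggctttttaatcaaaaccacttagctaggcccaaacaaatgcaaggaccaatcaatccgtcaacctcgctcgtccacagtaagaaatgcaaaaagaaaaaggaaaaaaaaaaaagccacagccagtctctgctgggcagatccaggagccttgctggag
Hoxd9, chr2:74697513-74697812, plus strand: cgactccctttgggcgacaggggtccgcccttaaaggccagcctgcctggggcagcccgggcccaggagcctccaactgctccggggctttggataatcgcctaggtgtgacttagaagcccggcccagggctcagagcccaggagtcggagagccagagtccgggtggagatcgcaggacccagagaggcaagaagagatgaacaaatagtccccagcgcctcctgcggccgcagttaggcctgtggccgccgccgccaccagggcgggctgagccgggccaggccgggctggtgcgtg

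Hoxa7 and Hoxb8 each held 2 matches to TTTATG, and Hoxb8 also held 1 match to TGATNNAT. The former was present in 11.9% and the latter in 8.85% of 32851 windows of the same length, which did not cover every chromosome. Hoxa5 and Hoxd8 each held 1 AGGTCA, present in 16.3% of these 32851 windows. Over the 11 windows of members, 3 held TTTATG, 2 held TGATNNAT and 4 held AGGTCA. The windows of Hoxa5, Hoxa3 and Hoxd9 held 29, 20 and 20 CG dinucleotides, against 9, 13 and 6 in those of Hoxa7, Hoxb8 and Hoxd8 and a median of 7 over the 32851 windows. A match describes the letters of a window and nothing of binding.

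The Hoxa genes on chromosome 6 (GRCm39, Hoxa2 to Hoxa7 at 52138599 to 52198834, a span of 60.2 kb) fell into a pair of levels in empty vector. Hoxa2 was already present there, whereas Hoxa3, Hoxa4, Hoxa5 and Hoxa7 were at 3.5 to 21.5 normalized counts. Hoxa2, which sets the identity of the hyoid arch, was at 94.1, 75.6 and 81.8 normalized counts in empty vector, at 200, 212 and 228 in SAM1, and at 114, 95.5 and 107 in SAM2. The 3 groups did not overlap, and the rise was larger in SAM1 (log2 difference 1.34, SE 0.108, adjusted p = 1e-07) than in SAM2 (0.33, adjusted p = 0.0157), with a difference between lines of -1.01 (adjusted p = 3.67e-06). The SAM2 call of Hoxa2 was lost without empty vector replicate 2 (0.26, adjusted p = 0.0621), without SAM2 replicate 1 (0.27, adjusted p = 0.0674), under quantile normalization (0.23, adjusted p = 0.0728) and in the count tests (0.27, adjusted p = 0.0960 in edgeR and 0.190 in DESeq2).

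Hoxa3, needed for the thymus and parathyroid, was at 12.3, 21.0 and 12.9 normalized counts in empty vector, at 159, 177 and 187 in SAM1, and at 106, 102 and 108 in SAM2. The groups were fully apart, and the mean in SAM1 was 11.3 times and that in SAM2 6.84 times the empty vector mean (log2 differences 3.46 and 2.74, SE 0.173, adjusted p = 7.77e-10 and 1.14e-08). Hoxa4, a gene of the neck vertebrae, was at 5.12, 4.2 and 3.5 in empty vector, at 51.3, 47.4 and 63.5 in SAM1, and at 41.5, 38.9 and 36.2 in SAM2. This gene rested on as few as 3 reads in an empty vector library, and its means were 12.6 and 9.10 times the control mean (log2 differences 3.38 and 2.93, SE 0.205, adjusted p = 5.4e-09 and 3.07e-08). Hoxa5, which acts in the lung and at the neck to thorax boundary, was at 7.16, 11.6 and 9.35 in empty vector, at 137, 164 and 152 in SAM1, and at 80.1, 90.9 and 91.9 in SAM2. Its ratios to the control mean, 16.1 in SAM1 and 9.37 in SAM2, were above those of the other Hoxa genes in the same line (log2 differences 3.89 and 3.12, SE 0.166, adjusted p = 1.47e-10 and 2.03e-09). Over all genes, 128 had a larger log2 rise than Hoxa5 in SAM1 and 83 in SAM2. Hoxa7, a gene of the thoracic skeleton, was at 21.5, 16.8 and 12.9 in empty vector, at 116, 117 and 93.8 in SAM1, and at 113, 108 and 118 in SAM2. The lines overlapped for Hoxa7, at 6.38 and 6.63 times the control mean (log2 differences 2.62 and 2.69, SE 0.170, adjusted p = 1.07e-08 and 1.11e-08).

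Between the lines, Hoxa3 and Hoxa5 were lower in SAM2 than in SAM1 (log2 differences -0.72 and -0.78, adjusted p = 0.00295 and 0.00128). Hoxa4 had a log2 difference of -0.46 that missed the threshold (SE 0.205, adjusted p = 0.0708), and it was called without empty vector replicate 3 (-0.46, adjusted p = 0.0481), with a pseudocount of 10 (-0.38, 0.0225) and in edgeR on recovered reads (-0.53, adjusted p = 0.0262). Hoxa7 differed between the lines by 0.06 (SE 0.170, adjusted p = 0.769). Exons of Hoxa3 share 504 bases with the antisense gene Hoxaas2 and those of Hoxa7 share 586 bases with Hoxaas3. The library kit keeps the strand, but whether the counting used it is not given in the sources used here. Reads of such a pair may thus not have been separated. On the same strand, where the kit could not separate reads, exons of Hoxa3 share 482 bases and those of Hoxa2 share 267 with Gm28308.

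**Figure D2:**
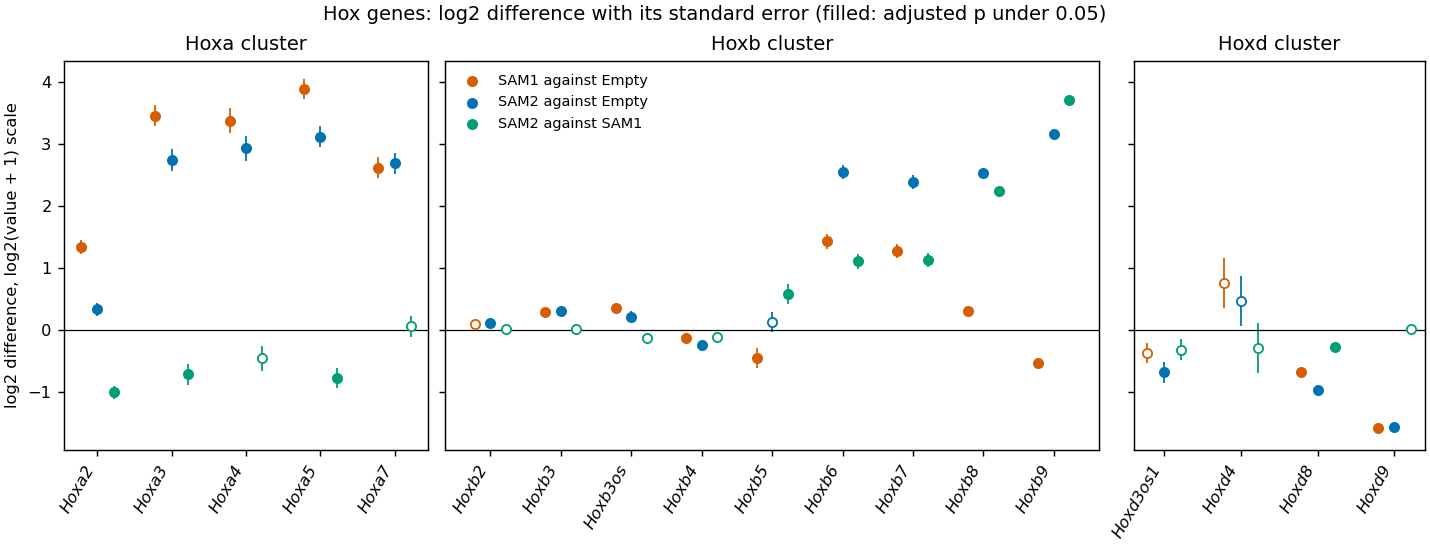
Log2 differences (log2(value + 1) scale) of the 18 Hox rows with standard errors from limma, for SAM1 against empty vector, SAM2 against empty vector and SAM2 against SAM1. Filled points had an adjusted p under 0.05 and open points did not. The Hoxa genes lie above 0 in each line, the Hoxb genes part from Hoxb5 upwards with Hoxb9 at -0.54 in SAM1 and 3.17 in SAM2, and Hoxd8 and Hoxd9 lie below 0 in each line.

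The Hoxb rows on chromosome 11 (GRCm39, Hoxb9 to Hoxb3os at 96162150 to 96245517, a span of 83.4 kb) split along their length. The span is that of the listed rows, which hold 8 of the 10 coding Hoxb genes in GENCODE vM39, and not of the whole cluster. The low-numbered genes Hoxb2, Hoxb3 and Hoxb4 were high in every library and moved little. Hoxb2, active in the hindbrain, was at 790, 820 and 793 normalized counts in empty vector, at 861, 884 and 820 in SAM1, and at 832, 892 and 874 in SAM2. The SAM2 libraries lay above all controls, and the top control and the lowest SAM1 library were alike. Its log2 differences were 0.09 in SAM1 (SE 0.0464, adjusted p = 0.0852) and 0.11 in SAM2 (adjusted p = 0.0459), and the SAM2 call was lost on leaving out empty vector replicate 1 (adjusted p = 0.101) or 3 (0.104), SAM1 replicate 1 (0.0604) or SAM2 replicate 2 (0.158) or 3 (0.114), under quantile normalization (0.05, adjusted p = 0.332) and in DESeq2 (0.14, 0.0799). In SAM1 it was called without SAM1 replicate 3 (0.12, adjusted p = 0.0481). Hoxb3, also a hindbrain gene, was at 721, 668 and 732 in empty vector, at 870, 833 and 878 in SAM1, and at 872, 887 and 860 in SAM2. The SAM libraries of Hoxb3 lay above all control libraries by a log2 difference of 0.28 in SAM1 and 0.30 in SAM2 (SE 0.0474, adjusted p = 0.000115 and 6.76e-05).

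Hoxb3os, transcribed from the opposite strand, was at 190, 214 and 194 normalized counts in empty vector, at 241, 244 and 278 in SAM1, and at 248, 229 and 215 in SAM2. It shares 2647 exon bases with Hoxb3 and 1035 with Hoxb2. Reads of shared bases may have been counted for either gene of a pair or for neither. Its SAM libraries lay above the controls. Its log2 difference was 0.35 in SAM1 (SE 0.0853, adjusted p = 0.00234) and 0.21 in SAM2 (adjusted p = 0.0427). The SAM2 call was lost without empty vector replicate 1 (0.18, adjusted p = 0.117) or 3 (0.19, 0.107), without SAM2 replicate 1 (0.16, 0.167) or 2 (0.21, 0.0795), under quantile normalization (0.10, 0.290) and in edgeR (0.15, 0.176) and DESeq2 (0.16, 0.311), and the SAM1 call was lost under quantile normalization (0.16, adjusted p = 0.0903). Hoxb4, known for its role in blood stem cells and the neck vertebrae, was at 1310, 1432 and 1363 in empty vector, at 1274, 1334 and 1114 in SAM1, and at 1119, 1183 and 1143 in SAM2. It fell in SAM2 by 0.25 on the log2 scale (SE 0.0606, adjusted p = 0.0022) with no overlap. In SAM1 its fall of -0.14 (adjusted p = 0.0454) overlapped the controls and was lost without empty vector replicate 2 (-0.11, adjusted p = 0.139) or 3 (-0.15, 0.0903), without SAM1 replicate 1 (-0.17, 0.0518) or 3 (-0.07, 0.241), without any of the SAM2 replicates (0.0558 to 0.0609), and in edgeR and DESeq2 (0.0637 and 0.0689). Without SAM1 replicate 3 Hoxb4 was also lower in SAM2 than in SAM1 (-0.18, adjusted p = 0.00858), which all libraries together did not show (-0.11, adjusted p = 0.142). Hoxb5, which positions the shoulder girdle, was at 88.0, 58.8 and 77.1 in empty vector, at 63.6, 48.4 and 49.8 in SAM1, and at 77.1, 77.9 and 86.3 in SAM2. The 3 libraries of SAM2 lay above those of SAM1 (log2 difference 0.58, SE 0.160, adjusted p = 0.00713). Against empty vector the SAM1 libraries overlapped the controls, with a fall of -0.45 (adjusted p = 0.0208) that was lost without empty vector replicate 1 (-0.33, adjusted p = 0.0950) or 3 (-0.42, 0.0620) and without SAM1 replicate 2 (-0.38, 0.0677) or 3 (-0.40, 0.0650), and the SAM2 difference was 0.12 (SE 0.160, adjusted p = 0.505).

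Hoxb6 to Hoxb9, at the other end of the Hoxb rows, stood higher in SAM2 than in SAM1 and empty vector. Hoxb6, expressed in the trunk mesoderm, was at 75.7, 71.4 and 51.4 normalized counts in empty vector, at 177, 177 and 180 in SAM1, and at 376, 396 and 388 in SAM2. The groups were fully apart in the order empty vector, SAM1, SAM2, with ratios to the control mean of 2.69 and 5.84 (log2 differences 1.43 and 2.55, SE 0.120, adjusted p = 1.52e-07 and 6.31e-10). Hoxb7, a neighbouring trunk gene, was at 73.7, 90.3 and 111 in empty vector, at 220, 210 and 228 in SAM1, and at 496, 466 and 476 in SAM2. It took the same order as Hoxb6, with ratios of 2.39 and 5.23 (log2 differences 1.27 and 2.39, SE 0.117, adjusted p = 3.89e-07 and 8.74e-10). Between the lines the log2 differences of Hoxb6 and Hoxb7 were 1.11 and 1.13 (adjusted p = 4.12e-06 and 2.89e-06).

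Hoxb8, which acts in the spinal cord and in blood progenitors, was at 158, 148 and 152 normalized counts in empty vector, at 177, 188 and 200 in SAM1, and at 887, 893 and 901 in SAM2. The step from SAM1 to SAM2 was a ratio of 4.75 (log2 difference 2.24, SE 0.0650, adjusted p = 1.43e-11), while SAM1 stood 0.30 above empty vector (adjusted p = 0.000971), a call that quantile normalization removed (0.03, adjusted p = 0.741). Hoxb9, a gene of the thoracic skeleton, was at 393, 333 and 353 in empty vector, at 253, 258 and 228 in SAM1, and at 3257, 3193 and 3252 in SAM2. The lines moved in opposite directions from empty vector, with a fall of -0.54 in SAM1 (SE 0.0654, adjusted p = 5.55e-06) and a rise of 3.17 in SAM2 (adjusted p = 2.64e-13), and no libraries overlapped between groups. The SAM2 mean was 9.0 times that of empty vector and 13.1 times that of SAM1 (log2 difference between lines 3.71, adjusted p = 1.81e-13), and 24 of the 15184 genes had a larger log2 rise from SAM1 to SAM2. When SAM1 and SAM2 were pooled, Hoxb8 and Hoxb9 had log2 differences of 1.42 (SE 0.637, adjusted p = 0.0870) and 1.31 (SE 1.05, adjusted p = 0.319) and were not called, so the pooled comparison does not describe either line for these genes.

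The Hoxd rows on chromosome 2 (GRCm39, 74528008 to 74559523, a span of 31.5 kb) were lower or unresolved in each line. Hoxd9, which acts in the limb and the lower trunk, was at 471, 529 and 474 normalized counts in empty vector, at 157, 169 and 165 in SAM1, and at 159, 161 and 175 in SAM2. The SAM lines overlapped each other far below the controls, and the empty vector mean was 3.01 times that of SAM1 and 2.97 times that of SAM2 (log2 differences -1.58 and -1.57, SE 0.0750, adjusted p = 4.44e-10 and 7.21e-10). Hoxd8, a gene of the lower trunk, was at 1478, 1668 and 1551 in empty vector, at 965, 964 and 971 in SAM1, and at 808, 800 and 785 in SAM2. All 3 groups were apart, with falls of -0.69 in SAM1 and -0.97 in SAM2 (SE 0.0460, adjusted p = 1.36e-08 and 6.49e-10) and a difference between the lines of -0.28 (adjusted p = 0.000181).

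Hoxd3os1, an antisense transcript that shares 443 exon bases with Hoxd8 and 347 with Hoxd4, was at 72.6, 99.8 and 79.4 normalized counts in empty vector, at 67.4, 69.1 and 56.6 in SAM1, and at 41.5, 58.4 and 55.7 in SAM2. Both SAM groups lay below the controls and overlapped each other. It fell in SAM2 by 0.69 on the log2 scale (SE 0.164, adjusted p = 0.00211). In SAM1 the value of -0.37 missed the threshold (adjusted p = 0.0562). It passed without empty vector replicate 1 (-0.47, adjusted p = 0.0319), without SAM2 replicate 1 (-0.37, 0.0370) and with the replicate block. It also passed in edgeR (-0.38, adjusted p = 0.0339), with a pseudocount of 10 (-0.33, 0.0464) and under quantile normalization (-0.77, 0.000829). Hoxd4, a neck vertebra gene, ranged from 5.12 to 8.18 in empty vector, from 6.64 to 16.6 in SAM1 and from 5.93 to 14.8 in SAM2. These ranges overlapped, and 5 to 17 reads lay behind each recovered value. The log2 differences of 0.76 and 0.46 had an SE of 0.403 (adjusted p = 0.106 and 0.320). Exons of Hoxd4 share 1154 bases with Gm28230 and 388 with Hoxd3 on the same strand, and reads of these bases may have been counted for neither gene. Without SAM1 replicate 1 the SAM1 difference of Hoxd4 passed the threshold (1.15, adjusted p = 0.0196), and under quantile normalization it turned to -0.02.

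To compare levels between genes, normalized counts were divided by the length of the canonical transcript of each gene in kb. The order of the 16 coding genes changed with the group. In empty vector, Hoxd8 (534 ± 32.6 per kb, SD, n = 3) and Hoxb4 (533 ± 23.7) led and overlapped, followed by Hoxb2 (492 ± 10.3). Hoxd9 (223 ± 15.0) and Hoxb3 (222 ± 10.8) came next and overlapped each other. In SAM1, Hoxb2 (525 ± 19.7) and Hoxb4 (484 ± 44.3) led and overlapped, followed by Hoxd8 (329 ± 1.24). In SAM2, Hoxb9 led at 1190 ± 13.1 per kb, apart from Hoxb2 at 532 ± 19.0, Hoxb4 at 447 ± 12.7 and Hoxb7 at 372 ± 11.9. Hoxa4 (2.68 ± 0.507) and Hoxd4 (4.44 ± 1.02) stood last in empty vector, and Hoxd4 stood last in SAM1 (8.40 ± 3.57) and SAM2 (6.66 ± 2.88).

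Summed over the 16 coding genes, the level per kb was 2402 ± 54.2 in empty vector, 2472 ± 49.0 in SAM1 and 3985 ± 20.7 in SAM2 (SD, n = 3). The empty vector libraries ranged from 2354 to 2461 and those of SAM1 from 2424 to 2522, so that they overlapped, while SAM2 ranged from 3962 to 4002. Hoxa genes made up 2.28 ± 0.211% of the sum in empty vector, 12.9 ± 0.651% in SAM1 and 5.24 ± 0.131% in SAM2. Hoxd genes made up 31.7 ± 1.29%, 16.7 ± 0.436% and 8.88 ± 0.0404%. Hoxb genes held the remaining 66.1 ± 1.19%, 70.4 ± 1.06% and 85.9 ± 0.173%, and Hoxb9 alone held 5.54 ± 0.590% in empty vector, 3.68 ± 0.182% in SAM1 and 30 ± 0.400% in SAM2. These shares are given as a description, without a test.

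**Figure D3:**
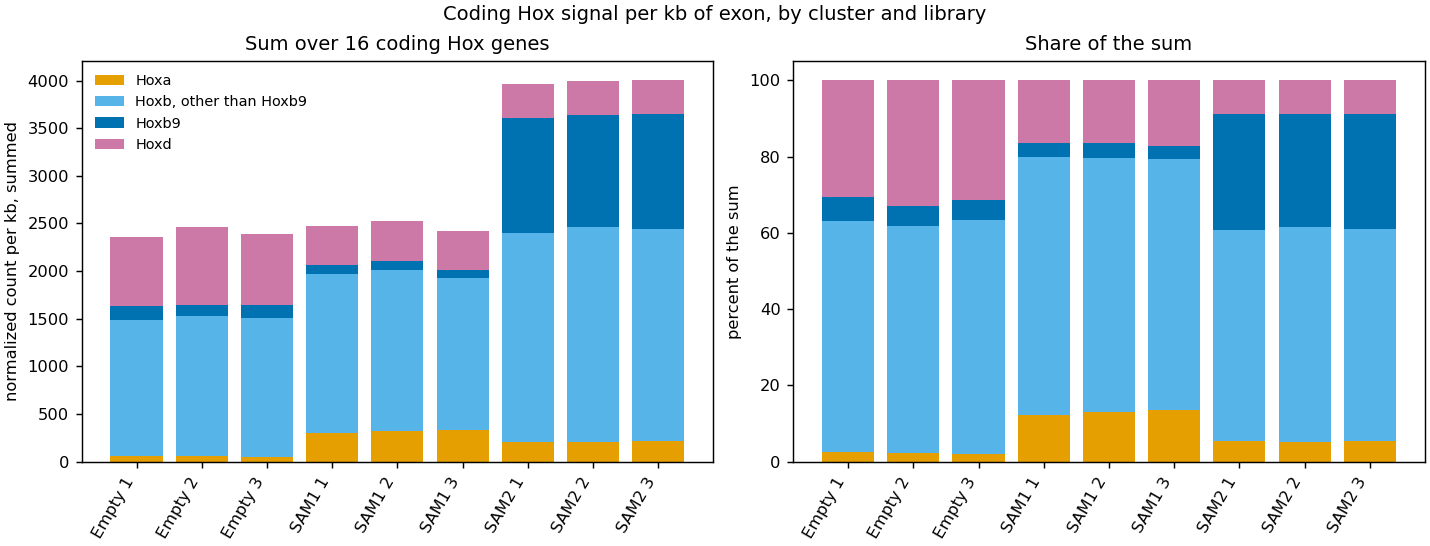
Normalized counts per kb of exon of the 16 coding Hox genes, stacked by cluster with Hoxb9 apart, for each of the 9 libraries, as sums (left) and as percent of the sum (right). The sums are 2354 to 2522 in empty vector and SAM1 and 3962 to 4002 in SAM2, where Hoxb9 fills 29.6 to 30.4%. The Hoxd share falls from at most 33.1% in empty vector to 16.4 to 17.2% in SAM1 and 8.84 to 8.92% in SAM2.

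Genes that start within 1 Mb outside the outermost described Hox rows of each cluster, or overlap the stretch between them, were read in the same fit. A flanking gene may thus still lie inside the full cluster. Around the Hoxa cluster 10 such flanking genes were analysed, of which 4 rose and 4 fell in SAM1 and 6 rose and 3 fell in SAM2. In percent, 40% rose and 40% fell in SAM1 and 60% rose and 30% fell in SAM2, beside 37.3% and 36.9% of all genes in SAM1 and 35.2% and 35.3% in SAM2. Their median log2 difference was -0.21 in SAM1 and 0.18 in SAM2, beside 3.38 and 2.74 for the Hoxa genes described. Nfe2l3, a transcription factor gene, fell by 2.04 in SAM1 and by 1.03 in SAM2, in log2 units (adjusted p = 4.43e-09 and 4.97e-06). Halr1, a long noncoding RNA beyond the low-numbered end of the cluster (52056776 to 52115615), was at 76.7, 68.3 and 92.3 normalized counts in empty vector, at 43.7, 42.5 and 52.7 in SAM1, and at 109, 114 and 117 in SAM2. It was thus lower in SAM1 (-0.76, adjusted p = 0.000204) and higher in SAM2 (0.52, adjusted p = 0.00366). The gene model Gm6559 was at 4.67 to 7.35 in empty vector, 0.00 to 5.92 in SAM1 and 28.7 to 45.5 in SAM2. Of 3 other genes inside the cluster, the antisense gene Hoxaas2 was at 39.9, 56.7 and 43.2 in empty vector, at 97.8, 126 and 95.7 in SAM1, and at 46.5, 35.2 and 52.0 in SAM2. Hoxaas2 rose in SAM1 (log2 difference 1.18, adjusted p = 5.45e-05), where its libraries lay apart, and had a difference of -0.07 in SAM2 (SE 0.182, adjusted p = 0.765). Hotairm1, a noncoding RNA of the Hoxa cluster, fell in SAM2 (-0.27, adjusted p = 0.0187) and had -0.16 in SAM1 (adjusted p = 0.135). The SAM2 call of Hotairm1 was lost without empty vector replicate 2 (-0.21, adjusted p = 0.0811) or 3 (-0.24, 0.0628), without SAM2 replicate 3 (-0.24, 0.0647) and in DESeq2 (0.0556), and a SAM1 call appeared without empty vector replicate 1 (-0.25, adjusted p = 0.0186).

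Around the Hoxb cluster 36 flanking genes were analysed, of which 7 rose and 15 fell in SAM1 and 5 rose and 16 fell in SAM2, with a median log2 difference of -0.12 and -0.26. The shares that fell, 41.7% and 44.4%, stood beside 36.9% and 35.3% of all genes, and those that rose, 19.4% and 13.9%, beside 37.3% and 35.2%. The gene model Gm53, which lies beyond Hoxb9 on the same strand (96126719 to 96160566, with Hoxb9 starting at 96162150), was at 10.2, 4.2 and 3.5 normalized counts in empty vector, at 1.90, 6.91 and 6.84 in SAM1, and at 67.3, 71.4 and 81.7 in SAM2. Its SAM2 libraries stood apart from all others, as those of Hoxb9 did, with log2 differences of 3.53 from empty vector and 3.72 from SAM1 (SE 0.422, adjusted p = 5.79e-06 and 6.4e-06), against -0.18 in SAM1 (adjusted p = 0.706), a value whose sign and call changed under the alternatives. Further out, B4galnt2, a glycosyltransferase gene at low level, was at 4.2 to 6.14 in empty vector, 0.00 to 0.987 in SAM1 and 11.9 to 14.8 in SAM2. Phospho1, a phosphatase of bone mineralization, rose by 1.70 in SAM1 and 1.16 in SAM2 (adjusted p = 3e-09 and 1.93e-07). Around the Hoxd cluster 8 flanking genes were analysed, of which 5 rose and 1 fell in SAM1 and 5 rose and 2 fell in SAM2, with medians of 0.27 and 0.12 beside -0.53 and -0.83 for the Hoxd rows. In SAM1 62.5% rose and 12.5% fell, beside 37.3% and 36.9% of all genes. In SAM2 62.5% rose and 25% fell, beside 35.2% and 35.3%. Chn1, a signalling gene at a distance of 922 kb, fell by 1.76 and 2.87 (adjusted p = 3.93e-05 and 4.28e-07), and the nearby pseudogene Mrpl23-ps1 rose by 0.54 and 0.60 (adjusted p = 0.0333 and 0.0213). Both calls of Mrpl23-ps1 were lost under quantile normalization (0.24 and 0.48, adjusted p = 0.362 and 0.0759) and without empty vector replicate 1 (0.0795 and 0.0540) or 2 (0.0926 and 0.0633), that in SAM1 also without SAM1 replicate 2 (0.23, adjusted p = 0.148), and that in SAM2 without SAM2 replicate 2 (0.0665) or 3 (0.0524). E030042O20Rik differed only between the lines (-0.53, adjusted p = 0.0416).

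The partner proteins of HOX factors are the TALE homeodomain proteins of the PBX, MEIS and PKNOX families, which bind DNA together with them. All 9 listed genes were analysed, and 7 rose and 1 fell in SAM1 and 8 rose and 0 fell in SAM2, with a median log2 difference of 0.44 and 0.34. For these and the lists that follow, the shares over all genes were 37.3% higher and 36.9% lower in SAM1 and 35.2% higher and 35.3% lower in SAM2. Meis3 was at 350, 335 and 304 normalized counts in empty vector, at 1165, 1133 and 1103 in SAM1, and at 1002, 959 and 975 in SAM2. Its SAM libraries lay far above the controls (log2 differences 1.78 and 1.57, adjusted p = 6.57e-12 and 3.66e-11). Pbx3 rose by 0.74 and 0.59, and Meis1 by 0.64 and 0.46 (adjusted p at most 7.34e-07 for these 4 values). Pknox2 was lower in SAM1 (-0.21, adjusted p = 0.0226) and higher in SAM2 (0.60, adjusted p = 1.05e-05), and the SAM1 call was lost without empty vector replicate 1 (-0.16, adjusted p = 0.0944), without SAM1 replicate 1 (0.0540) or 2 (0.0607), and in DESeq2 (0.0664).

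Of the caudal, Evx and ParaHox genes, which act upstream of or beside the Hox clusters in the embryo, 1 of 9 was analysed. This gene, Cdx1, ranged from 3.15 to 5.12 normalized counts in empty vector, from 10.9 to 19.5 in SAM1 and from 4.64 to 7.91 in SAM2. It was called higher in SAM1 (log2 difference 1.46, adjusted p = 0.00219) and had 0.40 in SAM2 (adjusted p = 0.332), at levels of a few reads, and the SAM1 call was lost under quantile normalization (0.60, adjusted p = 0.143). Retinoic acid is known to induce Hox genes in order along their clusters, and of 16 analysed genes of its pathway 9 rose and 5 fell in SAM1 and 7 rose and 5 fell in SAM2, with medians of 0.49 and 0.15. In percent, 56.2% rose and 31.2% fell in SAM1 and 43.8% rose and 31.2% fell in SAM2. Crabp2, which carries retinoic acid to its receptors, was at 359 ± 22.5 normalized counts in empty vector, 1589 ± 118 in SAM1 and 1142 ± 42.2 in SAM2 (SD, n = 3), and Rarb, a receptor gene that is itself a target of retinoic acid, at 183 ± 13.4, 433 ± 30.4 and 538 ± 34.2. Both rose in each line (log2 differences 2.14 and 1.67 for Crabp2, 1.24 and 1.55 for Rarb, adjusted p at most 6.76e-09). Aldh1a3, which makes retinoic acid, rose by 2.60 in SAM1 and 1.15 in SAM2 (adjusted p = 4.24e-10 and 1.97e-06). Stra6, a retinol transporter gene, rose in SAM1 (3.08, adjusted p = 1.32e-05) from a mean of 2.95 to one of 30.3, and had 0.84 in SAM2 (adjusted p = 0.0810), which passed the threshold without empty vector replicate 3 (1.16, adjusted p = 0.0262). Other genes of the list fell, of which a pair was picked after its values were seen. Dhrs3, which reduces retinal back to retinol, fell by 1.10 in SAM1 and 1.19 in SAM2 (adjusted p = 3.56e-06 and 1.94e-06). Crabp1, another carrier of retinoic acid, fell in SAM2 from a mean of 4255 in empty vector to 1961 (log2 difference -1.11, adjusted p = 1.16e-09).

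Polycomb proteins keep Hox genes silent where they are not used, and Trithorax proteins keep them active. Of 23 Polycomb genes 7 rose and 11 fell in SAM1 and 10 rose and 7 fell in SAM2, with a median log2 difference of -0.05 and 0.09. These were 30.4% higher and 47.8% lower in SAM1 and 43.5% higher and 30.4% lower in SAM2, on either side of the shares over all genes. Ezh2, the H3K27 methyltransferase, was at 1910 ± 85.1 in empty vector, 3211 ± 50.2 in SAM1 and 2913 ± 59.1 in SAM2 and rose by 0.75 and 0.61 (adjusted p = 6.39e-10 and 7.21e-09), as did its partner Jarid2 (0.58 and 0.37) and the reader Cbx2 (0.43 and 0.60). Pcgf5 (-0.90 and -0.59) and the ubiquitin ligase Rnf2 (-0.69 and -0.20) fell (adjusted p at most 0.000263 for the 8 values of these 4 genes). Of 13 Trithorax and H3K27 demethylase genes 4 rose and 3 fell in SAM1 and 6 rose and 1 fell in SAM2, with medians of 0.03 and 0.08. Kdm6b, which removes the H3K27 mark, rose by 0.48 and 0.86 (adjusted p = 1.28e-05 and 5.36e-08). Dpy30 (0.39 and 0.29) and the insulator factor Ctcf (0.28 and 0.35) also rose. Ash1l had 0.05 in SAM1 (adjusted p = 0.675) and rose by 0.35 in SAM2 (adjusted p = 0.00569), and Rbbp5 fell in SAM1 (-0.18, adjusted p = 0.00104) and had 0.04 in SAM2 (adjusted p = 0.364).

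Other transcription factor genes that mark body position were read from lists as well. Of 36 limb and trunk genes 18 were analysed, of which 7 rose and 7 fell in SAM1 and 5 rose and 8 fell in SAM2, with medians of -0.07 and -0.10. In SAM1 38.9% were called in each direction, close to the shares over all genes, and in SAM2 27.8% rose and 44.4% fell. The limb identity genes Tbx5, Tbx4 and Pitx1 were not among the genes analysed here. Osr2, a mesenchymal factor of the palate and limb, was at 122, 119 and 113 normalized counts in empty vector, at 9.49, 5.92 and 7.81 in SAM1, and at 15.8, 12.1 and 16.7 in SAM2. In log2 units it fell by 3.79 in SAM1 and 2.92 in SAM2 (adjusted p = 2.02e-09 and 3.81e-08), and Osr1, which acts in the trunk mesoderm, fell by 1.31 and 1.04 (adjusted p = 6.14e-11 and 9.33e-10) from a mean of 1722. Foxf1, a factor of the gut mesenchyme, fell in SAM1 (-0.91, adjusted p = 6.09e-05) and rose in SAM2 (1.17, adjusted p = 6.3e-06). At low level, Alx4 rose in SAM1 (3.28, adjusted p = 0.000194) from a mean of 1.80 to one of 22.4 and had 1.35 in SAM2 (adjusted p = 0.0547), which passed the threshold without empty vector replicate 1 (1.73, adjusted p = 0.0244) or SAM2 replicate 3 (1.89, 0.0119). Meox1 rose in SAM2 (2.74, adjusted p = 3.47e-05) from a mean of 2.16 to one of 20.4.

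Of 18 head and neural crest genes 8 were analysed, of which 7 rose and 0 fell in SAM1 and 6 rose and 2 fell in SAM2, with medians of 0.78 and 0.64. Foxd1 was at 401, 405 and 402 normalized counts in empty vector, at 938, 933 and 952 in SAM1, and at 1218, 1312 and 1295 in SAM2. The 3 groups of Foxd1 were apart (log2 differences 1.22 and 1.66, adjusted p = 2.6e-11 and 2.43e-12). The jaw gene Dlx2 rose by 1.99 and 0.71 and Lhx6, another gene of the jaw, by 1.37 and 0.80 (adjusted p at most 2.43e-06). Pax3, a gene of the neural crest and dermomyotome, rose in SAM1 (0.68, adjusted p = 2.91e-07) and fell in SAM2 (-0.25, adjusted p = 0.00281), where the call was lost in DESeq2 (adjusted p = 0.0508).

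**Figure D4:**
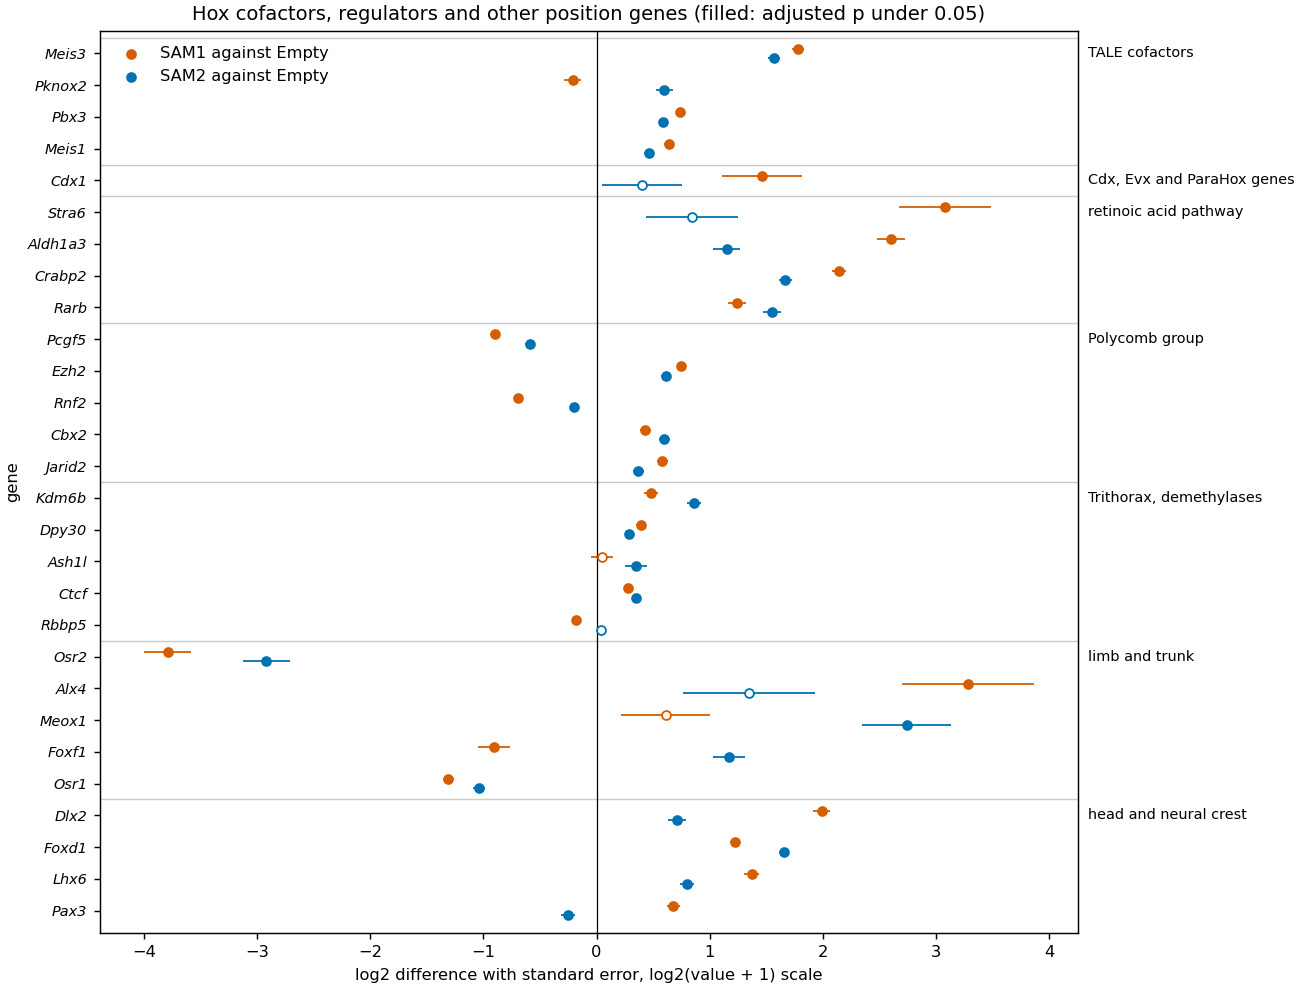
Log2 differences from empty vector with standard errors for up to 5 genes of each list (TALE cofactors, Cdx and ParaHox, retinoic acid, Polycomb, Trithorax, limb and trunk, head and neural crest), in SAM1 and SAM2. Filled points had an adjusted p under 0.05. Meis3, Aldh1a3, Crabp2, Rarb, Foxd1 and Alx4 (not called in SAM2) lie above 1 and Osr1 and Osr2 below -1 in each line. Pknox2, Foxf1, Pax3 and Rbbp5 (not called in SAM2) lie on opposite sides of 0 in the lines.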

How the data were processed

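PolyA+ RNA of MEFs was sequenced from strand-directional libraries in pairs of 43 bases. The authors aligned reads to GRCm39 with TopHat2 (running Bowtie2), obtained reads per gene with HTSeq, scaled the libraries with DESeq2 size factors and kept genes above 10 in 30% of samples. The deposited values are thus a signal, normalized counts and not raw counts. Whole reads were recovered in 8 of 9 libraries (100% of values within 0.1 reads), and 3 members had fewer than 10 reads in a library.

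Groups came from the labels. limma (3.58.1, with a trend) was fitted to log2(value + 1) of all 15184 genes in R 4.3.3, with 3 groups and again with the 6 SAM libraries as one group, and p-values were adjusted by Benjamini-Hochberg (threshold 0.05). Differences on this scale understate changes of low genes. Alternatives were other pseudocounts and filters, quantile normalization, a replicate block, edgeR (4.0.16) and DESeq2 (1.42.0) on recovered reads, and each library left out. On simulated counts of SAM1 against Empty (15184 genes, 200 changed 2-fold, dispersion 0.02) limma called 171 (85.5%) and 7 unchanged genes. The simulation took the libraries of a group as independent and changed far fewer genes than were called here, so these rates may not carry over to the data.

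Coordinates are from GRCm39 (GENCODE vM39) and promoter windows from RefSeq GRCm38.p6. Full values are given for members with a group mean of at least 50, up to 5 called genes per list and up to 3 per cluster neighbourhood with the largest differences. Values of 1 Hox row and of 3 listed genes are not reported here. The members and lists were chosen with earlier results of these data known.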

Additional observations from a re-analysis of the deposited data

Results flagged for a closer look

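The lines SAM1 and SAM2 carry the same label, Hnrnpk SAM, and the difference between them was tested directly in the limma fit with 3 groups. For 9 of the 18 Hox rows described it passed the threshold, 5 higher and 4 lower in SAM2, where 31.1% of all genes were called higher and 29.2% lower, so the share of called rows was not above that of all genes. SAM2 was lower than SAM1 for Hoxa2 (log2 difference -1.01), Hoxa3 (-0.72), Hoxa5 (-0.78) and Hoxd8 (-0.28). SAM2 was higher than SAM1 for Hoxb5 (0.58), Hoxb6 (1.11), Hoxb7 (1.13), Hoxb8 (2.24) and Hoxb9 (3.71). Groups of 3 libraries were not screened for single outlying libraries.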

How the results depend on the processing

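Each count of called Hox genes and each log2 difference was recomputed under the alternatives. Under these, 132 counts stayed within 1.5 times their value, and the other 6, all with 1 library left out, were counts of lower Hox genes. Over the libraries left out in turn, the lower count ranged from 3 to 5 in SAM1 against empty vector (3 without empty vector replicate 3 or SAM1 replicate 3) and from 2 to 4 in the pooled comparison (2 without empty vector replicate 2 or 3, SAM1 replicate 3 or SAM2 replicate 3).

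Of the differences of single Hox genes, 1130 kept their direction and their side of the threshold, 60 lost and 19 gained a call, and 13 turned sign, each of these from a value that was not called. Under quantile normalization Hoxd4 turned to -0.02 in SAM1 against empty vector, and between the lines Hoxb2 turned to -0.02, Hoxb3 to -0.01, Hoxd3os1 to 0.01 and Hoxd4 to 0.22. With single libraries left out, Hoxb5 in SAM2 against empty vector ranged from -0.04 to 0.25. Between the lines, Hoxd9 ranged from -0.03 to 0.04, Hoxb3 from -0.00 to 0.04, Hoxb2 from -0.01 to 0.05, Hoxa7 from -0.04 to 0.12 and Hoxd4 from -0.68 to 0.02. The cause was not tested.

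In the pooled comparison the calls of Hoxa2, Hoxb3os, Hoxb4 and Hoxd3os1 were lost with several single libraries left out, with adjusted p from limma up to 0.143. Of 84 called differences from empty vector of the other genes named, 75 were called in the same direction under every alternative that gave a value. Taking the mean of the lines in the fit with 3 groups gave 12 higher and 4 lower Hox genes.

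Libraries with the same replicate number correlated weakly (r from 0.00237 to 0.117 over 9 pairs, 3 above 0.1), so the numbers were not taken as pairs, although 15 of 18 checks matched a library best with its own number. With the replicate block, 11 Hox genes were higher and 6 lower in SAM1, 12 and 4 in SAM2, 5 and 4 between the lines and 7 and 4 in the pooled comparison. Hoxd4 and, in empty vector, Hoxa4 and Hoxa5 rested on fewer than 10 reads in a library, and the part of depth in their values was not tested.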
